A study of Mus musculus with 23 samples.

Results

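Phagocytes of spleen and marrow decide whether to engulf a red cell from signals of 2 kinds, and the 7 genes described here encode both. Fcgr1, Fcgr3 and Fcgr4 encode activating receptors for the Fc end of IgG, Fcgr2b encodes the inhibitory one, and Fcer1g encodes the common gamma chain, the signalling partner of the activating receptors. Sirpa encodes the macrophage receptor that brakes engulfment, and Cd47 encodes its ligand, which healthy red cells carry as a "do not eat" mark. The members were chosen by gene name, and all 7 had 1 row in each of the 2 deposited tables, of 22524 and 25700 genes.

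IgG bound to a target cell brings activating receptors together, and kinases of the Src and Syk families then phosphorylate the tyrosine motif (ITAM) of the gamma chain and start phagocytosis. FcγRIIB and SIRPα carry the opposing motif (ITIM), which recruits phosphatases such as SHIP-1 and SHP-1. Red pulp macrophages of the spleen clear aged red cells, and erythroblastic island macrophages of the marrow nurse maturing erythroblasts and take up the nuclei they expel.

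The study sequenced poly(A) RNA of 1000 sorted macrophages per library, in 23 libraries and 8 groups, all from C57BL/6 mice. The first table holds day-7 pups: splenic macrophages of wild type (RPM_d7_WT, 3 libraries) and vavCre mice (RPM_d7_vavCre, 3), and marrow macrophages of the same genotypes (BMM_d7_WT and BMM_d7_vavCre, 3 each). The other table holds splenic macrophages of day-7 Spic_WT (3) and Spic_KO pups (2), and of adults labelled TAM, of wild type (RPM_TAM_WT, replicates 1 and 3) and TAM_CreERT2 genotype (RPM_TAM_CreERT2, replicates 1, 2, 4 and 5). The Vav promoter drives Cre across blood-forming cells, and CreERT2 is a Cre activated by tamoxifen. The series describes rare surviving cells that lack the nuclear receptor PPARγ. No label names a floxed allele, says whether controls carry one, defines TAM or says whether replicates were separate animals, so p-values measure the spread between libraries, which may be technical.

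Levels are normalised read counts, which can be compared between groups within a table and not across tables. A gene is said to have risen or fallen when its Benjamini-Hochberg adjusted p from limma, over all genes tested in its table, was under 0.05. Libraries of the first table held 4.26 to 21.7 M reads and those of the other 0.693 to 6.29 M. All 9 macrophage markers had a signal in every group, while the 5 red pulp markers (Spic, Vcam1, Cd163, Treml4, Itgad) summed to 87242 to 97300 in RPM_d7_WT against 44288 to 47934 in RPM_d7_vavCre, and all 5 fell. In marrow the same sum was 58392 to 69488 against 19231 to 21272, with 4 of 5 fallen. Gene totals for Pparg do not show a deleted exon: they were 1550 to 2124 in RPM_d7_WT and 2496 to 4002 in RPM_d7_vavCre. Gene totals for Spic have the same limit: they were 931.1 and 1236 in the libraries labelled Spic_KO and 1993 to 3110 in Spic_WT. Of the 5 red pulp markers 3, with Spic among them, fell in Spic_KO and 0 rose. Their sum was 4639 to 4866 in Spic_KO against 11547 to 14306 in Spic_WT. Those Spic_KO libraries correlated at only 0.675 with each other over log2 values. Replicate 1 reached 0.767 with a library of another group, and replicate 2 at most 0.607. Each Spic_WT library reached a mean of 0.925 to 0.939 within its own group. The RPM_TAM_WT libraries correlated at 0.795 with each other, while replicates 1 and 3 reached 0.808 and 0.864 with a library of another group. For RPM_TAM_CreERT2 replicate 4 the highest value outside its group was 0.864, above its mean of 0.824 within it. The same order held for replicate 1, and not for replicates 2 and 5. The adult libraries thus did not group cleanly by label either.

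Fcgr2b (ENSMUSG00000026656), Fcgr3 (ENSMUSG00000059498), Fcgr4 (ENSMUSG00000059089) and Fcer1g (ENSMUSG00000058715) lie close together on mouse chromosome 1. In GRCm38 (GENCODE vM21) Fcgr2b spans chr1:170958617-170976547 on the minus strand, Fcgr4 chr1:171018920-171029761 on the plus strand, Fcgr3 chr1:171051174-171064935 and Fcer1g chr1:171229572-171234365, both on the minus strand. Fcgr1 (ENSMUSG00000015947) spans chr3:96282909-96293969 on the minus strand, Sirpa (ENSMUSG00000037902) chr2:129592835-129632228 and Cd47 (ENSMUSG00000055447) chr16:49800533-49915010, both on the plus strand. The antisense gene Gm38204 overlaps Fcgr2b, and no source used here says that counting respected strand, so its reads cannot be told apart from those of Fcgr2b.

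The inhibitory Fcgr2b and the activating Fcgr3 are near copies in the part that encodes their IgG-binding domains. Over 509 aligned coding bases of the transcripts Fcgr2b-201 and Fcgr3-201, 96.5% were identical, with an identical run of 129 bases. A stretch of 120 coding bases is shown for each because a read from it is assigned by only 2 bases, in capitals (bases 425 to 544 of the Fcgr2b and 410 to 529 of the Fcgr3 coding sequence, GENCODE vM21).
Fcgr2b: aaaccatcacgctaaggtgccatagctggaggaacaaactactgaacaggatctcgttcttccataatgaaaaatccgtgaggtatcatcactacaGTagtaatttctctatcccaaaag
Fcgr3: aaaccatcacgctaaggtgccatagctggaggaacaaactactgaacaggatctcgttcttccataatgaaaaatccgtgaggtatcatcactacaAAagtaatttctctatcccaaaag
Over the protein-coding transcripts 166 of the 3708 stretches of 50 bases in Fcgr2b (4.48%) also occur in Fcgr3, where they make up 10.2%. With any other gene, Fcgr3 included, Fcgr2b shares 249 (6.72%). How the authors counted reads that match several genes is not given in the sources used here. Part of the Fcgr2b or Fcgr3 level may thus belong to another gene.

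For the 4 IgG receptor genes, the 250 bases upstream of a RefSeq start of each are shown, and their link to the levels was not tested. The bases are from GRCm38.p6, 5′ to 3′ on the strand of the gene. For Fcgr2b and Fcgr3, and for Cd47, whose bases are not printed, the windows lie inside the gene spans given above. Bases upstream of their outermost annotated starts were not searched. Capitals mark GAGGAA or its reverse complement TTCCTC, letters of a site read by the myeloid factor PU.1 and its relative SpiC. Shorter or variant forms of the site were not counted, and the shorter GGAA occurs in the Fcgr2b window too. Of the members, 6 of 7 had a promoter entry, and for Fcgr3 the one whose motif lies 10 bases from the start is given.
Fcgr2b (chr1:170976072-170976321, minus strand): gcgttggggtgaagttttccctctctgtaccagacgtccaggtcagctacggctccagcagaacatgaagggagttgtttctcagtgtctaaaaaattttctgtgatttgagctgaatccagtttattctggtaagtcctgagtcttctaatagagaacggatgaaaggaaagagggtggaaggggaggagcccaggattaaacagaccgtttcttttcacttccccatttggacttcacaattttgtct
Fcgr1 (chr3:96293970-96294219, minus strand): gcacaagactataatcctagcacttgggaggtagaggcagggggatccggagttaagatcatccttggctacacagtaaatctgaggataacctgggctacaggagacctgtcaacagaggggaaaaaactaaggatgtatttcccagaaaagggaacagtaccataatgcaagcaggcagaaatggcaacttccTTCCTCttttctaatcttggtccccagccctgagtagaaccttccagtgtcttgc
Fcgr3 (chr1:171059395-171059644, minus strand): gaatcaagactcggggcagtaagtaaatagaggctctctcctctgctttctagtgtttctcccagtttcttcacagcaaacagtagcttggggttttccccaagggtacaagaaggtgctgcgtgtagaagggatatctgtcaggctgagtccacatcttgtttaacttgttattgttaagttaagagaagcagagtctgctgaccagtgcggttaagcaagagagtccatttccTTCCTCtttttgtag
Fcgr4 (chr1:171018676-171018925, plus strand): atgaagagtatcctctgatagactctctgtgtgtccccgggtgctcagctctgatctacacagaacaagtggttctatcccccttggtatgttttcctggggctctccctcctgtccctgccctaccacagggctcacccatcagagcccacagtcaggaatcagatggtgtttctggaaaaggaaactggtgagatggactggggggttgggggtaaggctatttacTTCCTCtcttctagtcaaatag
All 3 activating receptor genes held 1 match, on the reverse strand, ending 50 (Fcgr1), 10 (Fcgr3) and 17 (Fcgr4) bases upstream of the start. Fcgr2b, Fcer1g and Cd47 held none in the windows searched, and across 32851 mouse promoters of this length 23.3% held at least 1 on either strand. The letters TTCNNNGAA, the core of the site read by STAT proteins, occurred in Fcgr1 and in 7.02% of all promoters. AGGTCA, the nuclear receptor site that PPARγ recognises as a repeat, occurred in Fcgr2b and in 14.02%. These are matches of letters, not measured binding.

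Within wild type spleen the members differed widely in level. Per kilobase of the union of their coding transcripts, mean values in RPM_d7_WT were 28503 for Fcer1g, 6122 for Fcgr3, 4368 for Sirpa, 1215 for Cd47, 1141 for Fcgr4, 1023 for Fcgr1 and 14.9 for Fcgr2b. The gamma chain gene was thus the highest of the 7 and the inhibitory receptor gene the lowest. Fcer1g was highest in all 8 groups whether the union, the longest or the shortest coding transcript set the length, while the order of the others moved with that choice. In BMM_d7_vavCre the lowest was Fcgr4, at 179 per kilobase against 399 for Fcgr2b.

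**Figure D1:**
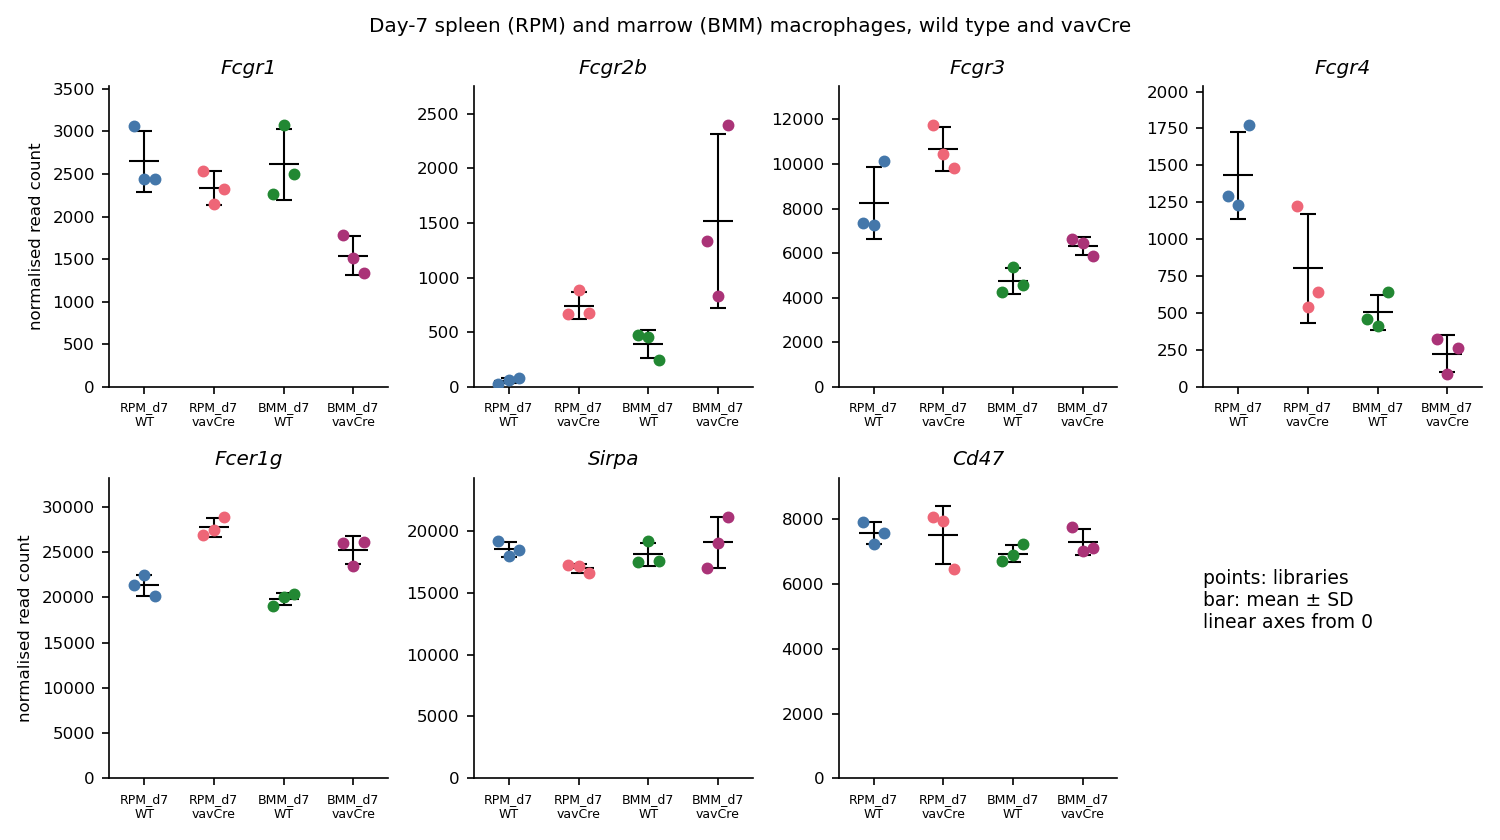
Normalised read counts of the 7 genes in each library of the first table (points), with the mean and SD of each group; every panel has its own linear axis from 0. Fcgr2b was lowest in RPM_d7_WT, at 29.61 to 80.31, and at 662.2 to 883.5 in RPM_d7_vavCre, while Sirpa and Cd47 kept close levels in all 4 groups.

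The first comparison asked how the splenic macrophages that remain in vavCre pups differ from wild type. Fcgr2b rose most among the members, the gamma chain gene Fcer1g rose slightly, and the activating receptor genes, Sirpa and Cd47 did not pass the test. That is 2 of 7 members up and 0 down, where 5.52% of the 15130 genes tested were called, 2.98% up and 2.54% down. The members' median log2 change was -0.02, and that of all tested genes was -0.02 too.

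Fcgr2b, the inhibitory receptor gene, stood at 29.61, 59.83 and 80.31 in RPM_d7_WT replicates 1 to 3 and at 662.2, 883.5 and 679.9 in RPM_d7_vavCre. Every vavCre library lay far above every wild type library. The mean went from 56.6 ± 25.5 to 742 ± 123 (SD, n = 3 each), 13.1-fold higher, a log2 change of 3.79 (SE 0.39, limma adjusted p = 3.5e-06). These levels rest on 297 reads in all in wild type and 2978 in vavCre. B cells are known for FcγRIIB as well. The 6 B cell markers summed to 3278 to 9104 in the controls and 2927 to 6989 in vavCre, with overlapping ranges. Of them 0 rose and 1 fell, with a median log2 change of -0.87, and their part in the Fcgr2b level was not tested. The 5 monocyte markers summed to 529 to 783 in the controls and 258 to 514 in vavCre. Of these 0 rose and 0 fell, with a median log2 change of 1.08, and the part of monocytes in the member levels was not tested. In bulk libraries, fewer cells of a type and less RNA per cell cannot be told apart.

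Fcer1g gave 21320, 22440 and 20200 in wild type and 26850, 27460 and 28910 in vavCre. The groups did not overlap, and the spread within each was small. Its mean rose from 21320 ± 1120 to 27740 ± 1058 (n = 3 each), 1.30-fold, with a log2 change of 0.38 (SE 0.08, limma adjusted p = 0.00527). Neutrophils, which are known for Fcer1g, Fcgr3 and Fcgr4 as well, had higher markers in the same libraries: the 8 markers summed to 320 to 2408 among the controls and 2521 to 5506 among vavCre libraries, with 1 up, 0 down and a median log2 change of 2.84. Among them S100a8, a calcium-binding protein gene of neutrophils, was 45.92 to 675.8 against 964 to 2002, and Retnlg was 0 to 1.66 against 57.1 to 76.3. The part of neutrophils in the levels of Fcer1g, Fcgr3 and Fcgr4 was not tested. Macrophage markers moved too: of 9, 2 rose and 1 fell, with a median log2 change of 0.27. Csf1r was 16780 to 18370 in the controls against 21770 to 23570 in vavCre, while Vcam1 was 56220 to 64210 against 32840 to 36170. Whether the rise of Fcer1g went beyond that of such markers was not tested.

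The receptors that signal through the gamma chain did not follow it as a group. Fcgr3, the low-affinity activating receptor gene, was 7341, 7268 and 10130 in wild type and 11740, 10430 and 9829 in vavCre, so that wild type replicate 3 lay inside the vavCre range. The log2 change was 0.38 (95% interval 0.11 to 0.66, limma adjusted p = 0.110), and without RPM_d7_WT replicate 3 it was 0.54 and passed (0.0132). Fcgr4, which binds IgG2a and IgG2b, was 1294, 1234 and 1772 in wild type and 1224, 540.9 and 644.2 in vavCre. Its groups came close without overlapping, with vavCre replicate 1 nearest to wild type, and it changed by -0.91 on the log2 scale (-1.73 to -0.09) without passing (limma adjusted p = 0.245; 0.0330 when only the compared groups were fitted). Fcgr1, the high-affinity receptor gene, was 3063, 2442 and 2444 against 2541, 2144 and 2323, overlapping ranges with a log2 change of -0.18 (-0.51 to 0.15).

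The checkpoint pair was level. Sirpa was 19180, 17960 and 18430 in wild type and 17200, 17150 and 16570 in vavCre, lower in every vavCre library by a small step (log2 change -0.13, 95% interval -0.31 to 0.06, limma adjusted p = 0.571). Cd47 was 7921, 7217 and 7581 against 8073, 7947 and 6466, with a log2 change of -0.02 (-0.24 to 0.20). Cd47 is also abundant on red cells, and the 10 erythroid markers took 2.17 to 3.35% of signal in the controls and 1.10 to 1.54% in vavCre; their part in the Cd47 level was not tested.

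In marrow the same genotypes were compared for the macrophages of that tissue. Fcgr2b and Fcer1g rose again, and the activating receptor genes Fcgr1 and Fcgr4 fell. That is 2 of 7 members up and 2 down, where 7.81% of all tested genes were called, 3.41% up and 4.4% down. The members' median log2 change was 0.07, against -0.04 for all tested genes. Markers of other cells moved in the same comparison: all 10 erythroid markers fell (median log2 change -1.52), from 2.39 to 3.57% of signal in the controls to 0.905 to 1.35% in vavCre. Of the 9 macrophage markers 2 rose and 2 fell, and their sum was 153157 to 179713 against 140006 to 150051. The 8 neutrophil markers overlapped, at 960 to 4188 against 1313 to 2056, with 0 up and 0 down. The 5 monocyte markers summed to 573 to 793 in the controls and 251 to 457 in vavCre, with 0 up and 0 down. The part of these cells in the changes of the members was not tested.

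Fcgr2b stood at 474.6, 453.8 and 241.4 in BMM_d7_WT and at 1333, 833.9 and 2395 in BMM_d7_vavCre. The vavCre libraries were all higher but spread widely, with replicate 3 far above replicate 2. The mean went from 389.9 ± 129 to 1521 ± 797 (n = 3 each), 3.90-fold higher, with a log2 change of 1.89 (SE 0.39, limma adjusted p = 0.00472). B cell marker sums ranged from 3960 to 12462 among the controls and from 5786 to 7725 among vavCre libraries, with 0 up and 2 down of 6. The median log2 change of these markers was -2.11, and their part in the Fcgr2b level was not tested.

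Fcer1g was 19060, 20000 and 20350 in wild type marrow and 26040, 23490 and 26160 in vavCre. Again no library overlapped, and the log2 change of 0.35 (SE 0.08, limma adjusted p = 0.00931) was close to that in spleen. Fcgr1 was 2268, 3073 and 2499 against 1781, 1513 and 1333. All vavCre libraries lay below all wild type ones, and the log2 change was -0.76 (SE 0.16, limma adjusted p = 0.00455), or 1.69-fold lower.

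Fcgr4 was 458.5, 415.2 and 640.7 in wild type and 324.5, 86.06 and 262.5 in vavCre, where replicate 2 was far below the others. Its log2 change of -1.35 (SE 0.39) passed with a limma adjusted p of 0.0402. The call was lost without BMM_d7_vavCre replicate 2 (log2 change -0.76, 0.163) and without BMM_d7_WT replicate 1 (0.0789), replicate 2 (0.0505) or replicate 3 (0.148). It was also lost in edgeR on recovered reads (0.105), with no filter (0.0779), with a pseudocount of 5 (0.0604) and when only the compared groups were fitted (0.0820). The depth there was low, at 71 to 155 reads per vavCre library.

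Fcgr3 was 4273, 5374 and 4579 in wild type and 6623, 6454 and 5860 in vavCre, higher in every vavCre library, with a log2 change of 0.42 (95% interval 0.14 to 0.69, limma adjusted p = 0.0599). It passed without BMM_d7_WT replicate 2 (0.0301), with a stricter filter on low values (0.0474) and in DESeq2 on recovered reads (0.0429). Sirpa (17520, 19190 and 17580 against 17020, 19030 and 21140) and Cd47 (6692, 6884 and 7238 against 7756, 7019 and 7118) overlapped between genotypes, each with a log2 change of 0.07. Their 95% intervals, -0.12 to 0.26 for Sirpa and -0.15 to 0.29 for Cd47, both include 0.

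**Figure D2:**
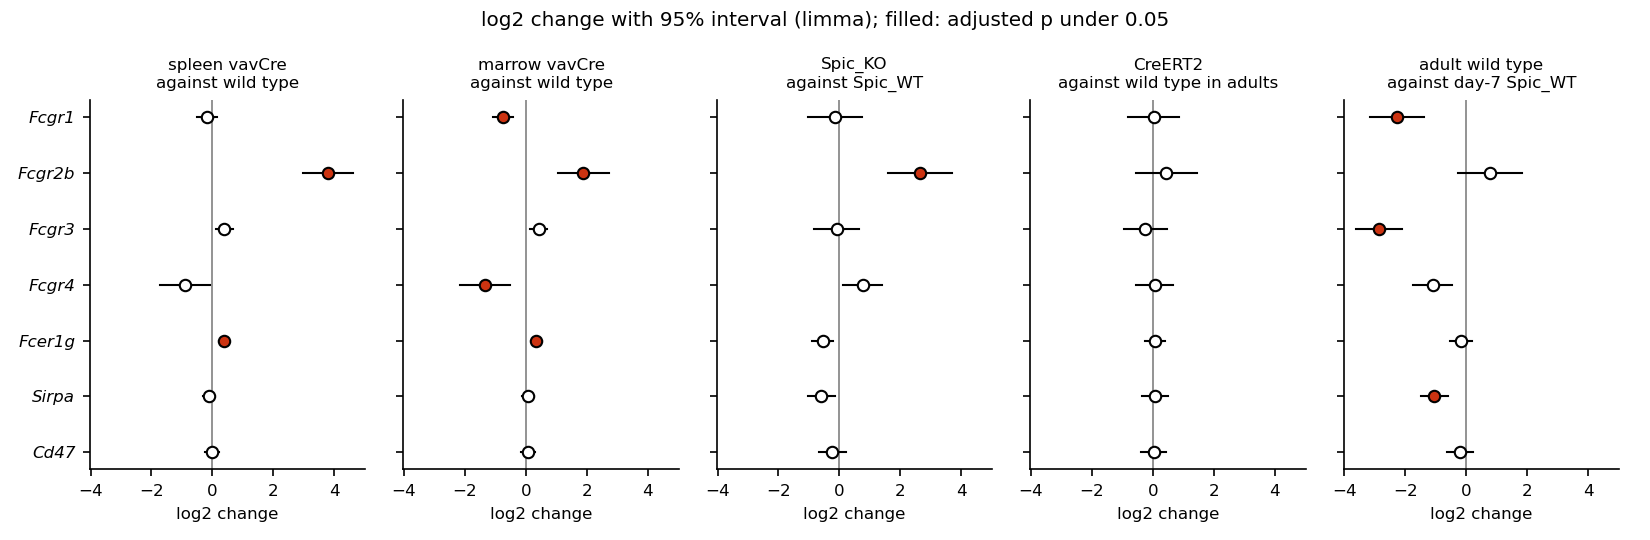
The log2 change of each member (horizontal axis) in 5 comparisons, with its 95% limma interval; filled points have an adjusted p under 0.05. Fcgr2b lies to the right of 0 in both vavCre comparisons (3.79 and 1.89) and in Spic_KO (2.66), and Fcgr1, Fcgr3 and Sirpa lie to the left in the adult comparison.

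Whether vavCre acted differently in the 2 tissues was tested as a difference of the log2 changes. No member passed (0 up and 0 down), and 0.119% of all tested genes did, 0.112% up and 0.00661% down. Fcgr2b had the largest difference among the members, 1.90 higher in spleen (95% interval 0.73 to 3.07), with an unadjusted limma p of 0.00301 and an adjusted p of 0.415. For Fcgr1 the difference was 0.58 (0.12 to 1.05), with an unadjusted limma p of 0.0172 and an adjusted p of 0.673. Those were the 2 members with an unadjusted p under 0.05, and edgeR and DESeq2 on recovered reads called 0 members.

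The tissues themselves were compared in each genotype, with each group shared by 1 of the vavCre comparisons above. In wild type, Fcgr2b was lower and Fcgr3 and Fcgr4 were higher in spleen than in marrow, 2 of 7 members up and 1 down, where 3.89% of tested genes were called, 2.07% up and 1.82% down. Fcgr2b was 6.89-fold higher in marrow, and each marrow library, at 241.4 or more, exceeded the highest splenic one (log2 change -2.81, SE 0.39, limma adjusted p = 0.000255). Fcgr3 was 1.74-fold higher in spleen (0.79, SE 0.13, limma adjusted p = 0.00151), with no overlap between 7268 as the lowest in spleen and 5374 as the highest in marrow. Fcgr4 was 2.84-fold higher in spleen (1.51, SE 0.39, limma adjusted p = 0.0351). Its call was lost when any 1 of the 6 libraries was left out (adjusted p 0.0560 to 0.179). Fcgr1, Fcer1g, Sirpa and Cd47 overlapped between the tissues.

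In vavCre, Fcgr1, Fcgr3 and Fcgr4 were higher in spleen, 3 of 7 members up and 0 down, where 3.5% of tested genes were called, 2.68% up and 0.82% down. Fcgr4 differed most, 3.58-fold (log2 change 1.95, limma adjusted p = 0.00674, and 0.0560 without RPM_d7_vavCre replicate 1). Fcgr3 differed 1.69-fold (0.75, limma adjusted p = 0.00192). Fcgr1 differed 1.51-fold (0.61, limma adjusted p = 0.0384), a call lost when RPM_d7_vavCre replicate 1 (0.149), 2 (0.0628) or 3 (0.108), or BMM_d7_vavCre replicate 2 (0.0851) or 3 (0.126), was left out. For Fcgr2b the libraries overlapped and the log2 change of -0.91 (95% interval -1.74 to -0.09) did not pass (limma adjusted p = 0.244).

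Over the 4 groups the levels of Fcgr2b ordered as BMM_d7_vavCre, RPM_d7_vavCre, BMM_d7_WT and RPM_d7_WT, and only the first pair overlapped. Those of Fcgr4 ordered as RPM_d7_WT, RPM_d7_vavCre, BMM_d7_WT and BMM_d7_vavCre, and only the middle pair overlapped. Cd47 overlapped between every pair of neighbours in its order.

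Activating and inhibitory receptors bind the same IgG, so their ratio within a library is given as a description. Every ratio to Fcgr2b shares that denominator, so the rise of Fcgr2b alone lowers each of them. In RPM_d7_WT the values of Fcgr4 were 20.6 to 43.7 times those of Fcgr2b, and in RPM_d7_vavCre 0.612 to 1.85 times. The marrow ratios were 0.915 to 2.65 for wild type and 0.103 to 0.243 for vavCre. As log2 ratios of values plus 1, the means were 4.73 ± 0.58, 0.03 ± 0.80, 0.41 ± 0.86 and -2.83 ± 0.69 (SD, n = 3 each). The log2 ratio of Fcgr3 to Fcgr2b went from 7.26 ± 0.56 to 3.85 ± 0.29 in spleen and from 3.66 ± 0.54 to 2.18 ± 0.84 in marrow. Counts per gene are not corrected for length here, so a ratio of 1 does not mean equal numbers of transcripts. By contrast Sirpa to Cd47 stayed within a narrow band, 2.13 to 2.97 times in all 12 libraries.

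**Figure D3:**
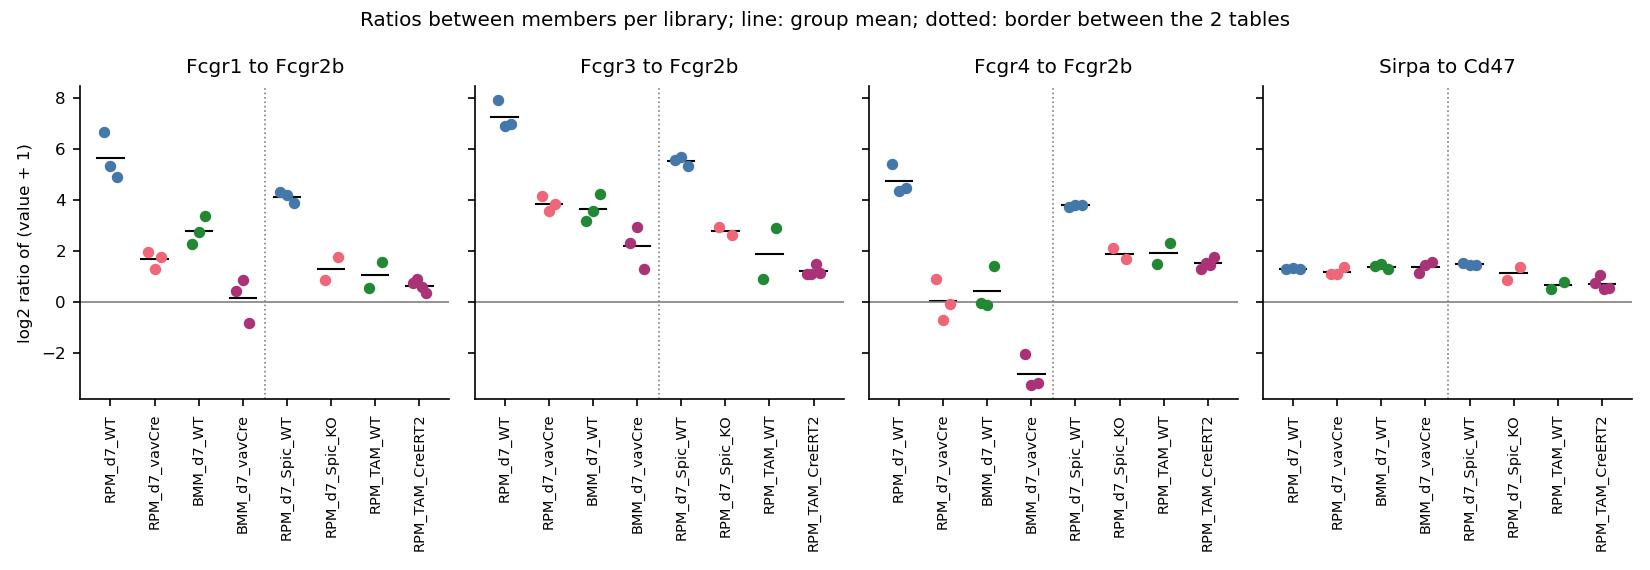
The log2 ratio of (value + 1) between members in each library (points), by group, with the group mean as a line; the dotted line separates the 2 tables. The 3 ratios to Fcgr2b are lower in vavCre than in wild type of the same tissue and lower in Spic_KO than in Spic_WT. They share that denominator, so the rise of Fcgr2b alone lowers all 3. Sirpa to Cd47 is at most 1.04 in every adult library.

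Spic encodes a transcription factor of red pulp macrophages, and the next comparison set the libraries labelled Spic_KO against those of Spic_WT pups. Fcgr2b rose and no other member passed: 1 of 7 up and 0 down, where 3.95% of 16650 genes tested were called, 1.47% up and 2.48% down. The members' median log2 change was -0.15 and that of all tested genes was 0.

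Fcgr2b was 33.62, 19.62 and 33.01 in RPM_d7_Spic_WT and 140.2 and 236.5 in RPM_d7_Spic_KO. In the libraries labelled Spic_KO the gene total of Spic, which does not show a deleted exon, was 931.1 and 1236. Both lay above all controls for Fcgr2b, on 291 reads in all in the controls and 737 in those 2 libraries. The mean went from 28.8 ± 7.91 (n = 3) to 188 ± 68.1 (n = 2), 6.55-fold higher, with a log2 change of 2.66 (SE 0.50, limma adjusted p = 0.00365). Without Spic_KO replicate 2 the log2 change was 2.29 and the call was lost (0.0629). The B cell markers summed to 568 to 798 in the controls and 869 to 1062 in the libraries labelled Spic_KO, with 2 of 6 up; their part in the Fcgr2b change was not tested. Fcer2a, the low-affinity IgE receptor gene of B cells, rose too, from 0 in all controls to a mean of 28.3 (limma adjusted p = 0.000946).

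Among the activating receptors, Fcgr4 was 458, 287.7 and 475.1 in the controls and 601.7 and 766.3 in the libraries labelled Spic_KO, higher in both (log2 change 0.77, 95% interval 0.13 to 1.41, limma adjusted p = 0.174). Fcgr1 split those 2 libraries, at 253.3 and 806.1 around controls of 691.1, 371.4 and 493.2. Fcgr3 was 1656, 1060 and 1354 against 1085 and 1444, overlapping ranges with a log2 change of -0.09 (-0.85 to 0.66).

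The remaining members were lower in both libraries labelled Spic_KO without passing. Fcer1g was 4086, 3430 and 4353 against 2823 and 2553 (log2 change -0.55, 95% interval -0.90 to -0.20, limma adjusted p = 0.0700). Sirpa was 3164, 2929 and 2976 against 1605 and 2520 (-0.59, -1.03 to -0.14, limma adjusted p = 0.136). Cd47 was 1107, 1074 and 1084 against 893.6 and 967.5 (-0.23, -0.66 to 0.21, limma adjusted p = 0.636). DESeq2 on recovered reads called Fcgr4 (0.0342) and Fcer1g (0.0319) as well. Macrophage markers moved in the same libraries: 4 of 9 fell and 0 rose, and their sum was 16077 to 16638 against 25673 to 35168.

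**Figure D4:**
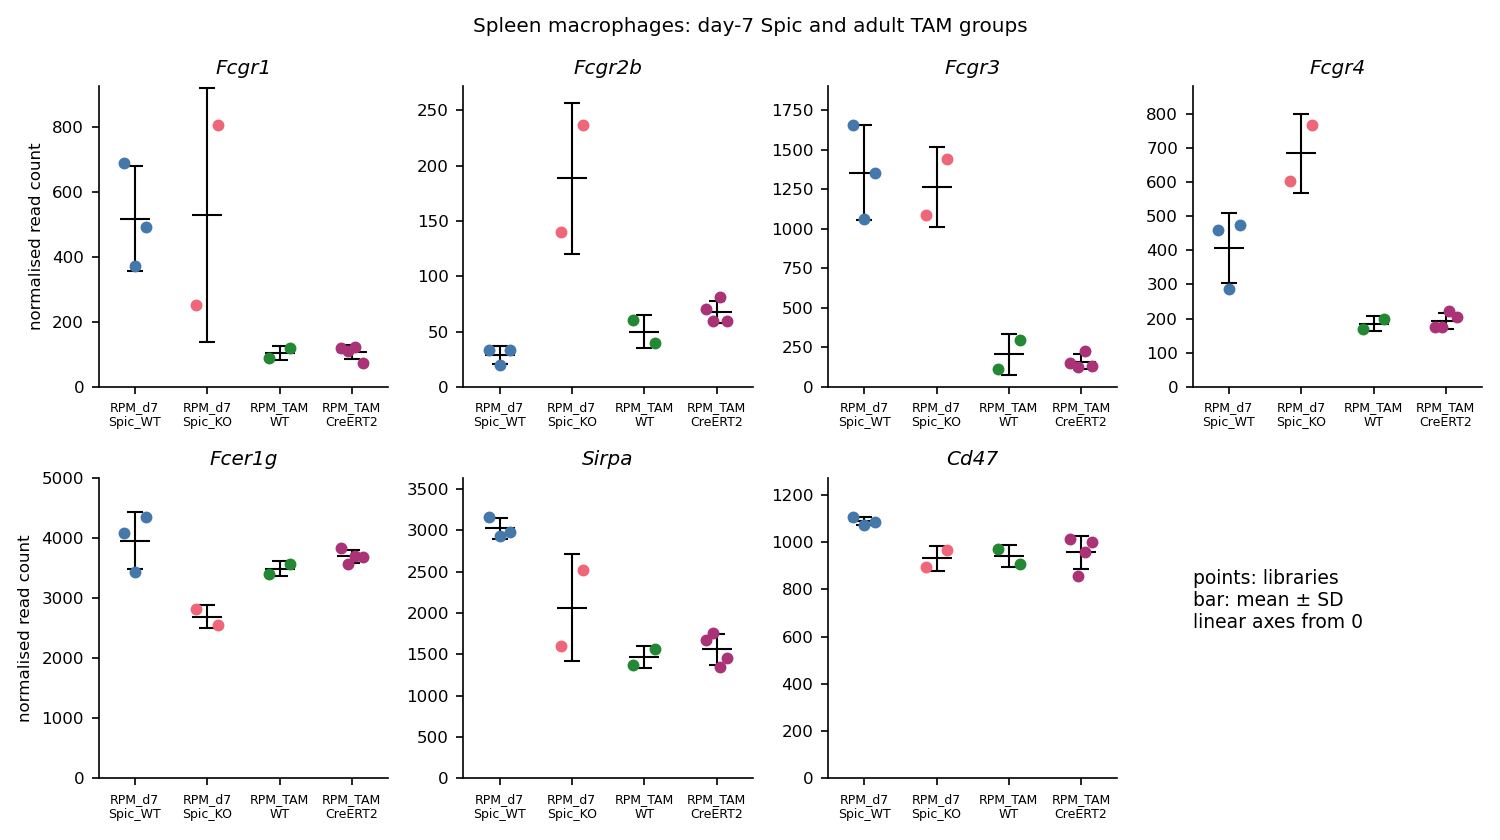
Normalised read counts of the 7 genes in each library of the other table (points), with the mean and SD of each group; every panel has its own linear axis from 0. Both Spic_KO libraries lie above Spic_WT for Fcgr2b, and the 6 adult libraries lie at 74.48 to 122.3 for Fcgr1, below every day-7 library.

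In adults, TAM_CreERT2 was compared with wild type. No member passed, where 0.144% of tested genes were called, 0.0601% up and 0.0841% down, and no member had an unadjusted limma p under 0.05 or was called by edgeR or DESeq2. Fcgr2b was 60.43 and 39.43 in RPM_TAM_WT and 70.42, 59.83, 80.91 and 59.07 in RPM_TAM_CreERT2, with overlap and a log2 change of 0.45 (95% interval -0.55 to 1.44, limma adjusted p = 0.834). For the vavCre comparisons the intervals were 2.96 to 4.61 in spleen, and 1.07 to 2.71 in marrow, which overlaps that of the adults. They come from the other table, another age and another Cre. A direct test between the adult and vavCre changes was not possible across tables.

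The other members overlapped between the adult groups. Fcgr3 had the widest spread, at 113.5 and 296.6 in wild type and 152.2, 128.5, 226.7 and 131 in TAM_CreERT2, and its log2 change of -0.24 turned to 0.45 without RPM_TAM_WT replicate 3. Sirpa (1374 and 1564 against 1674, 1762, 1343 and 1454) and Cd47 (972.5 and 906.8 against 1012, 857.6, 956.8 and 1000) had log2 changes of 0.08 and 0.02. Erythroid markers took 7.49 to 11.01% of signal in adult wild type and 12.7 to 20.7% in TAM_CreERT2, the highest share of any group. Of the 10 markers 2 rose and 0 fell, with a median log2 change of -0.29. Their part in the Cd47 level was not tested.

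Adult wild type and day-7 Spic_WT spleen share a table, but age, the TAM label and the cohort cannot be told apart. Fcgr1, Fcgr3 and Sirpa were lower in adults, 0 of 7 members up and 3 down, where 3.42% of tested genes were called, 1.56% up and 1.86% down. The members' median log2 change was -1.04, against 0 for all tested genes. Fcgr3 was 113.5 and 296.6 in adults against 1060 to 1656 in pups, 6.62-fold lower (log2 change -2.85, SE 0.36, limma adjusted p = 0.000109). Fcgr1 was 88.19 and 119.7 against 371.4 to 691.1, 4.99-fold lower (-2.28, SE 0.43, limma adjusted p = 0.00402). Sirpa was 1374 and 1564 against 2929 to 3164, 2.06-fold lower (-1.04, SE 0.21, limma adjusted p = 0.00733).

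The calls of Fcgr1 (0.156) and Sirpa (0.192) were lost without RPM_TAM_WT replicate 1, and that of Fcgr3 was not. Fcgr4 was 170.7 and 200 against 287.7 to 475.1, below every pup (log2 change -1.10, limma adjusted p = 0.0535), and it passed in 6 of the alternatives. Fcer1g, at 3403 and 3574, stayed within the range of the pups (3430 to 4353) at its upper value, with a log2 change of -0.17 (95% interval -0.52 to 0.17). Thus the gamma chain gene and 2 of the receptors that use it differed in what passed, though the difference between genes was not tested. Fcgr2b went the other way, with both adult values above every pup (0.78, -0.27 to 1.83, limma adjusted p = 0.495). The values of Sirpa were 1.41 to 1.72 times those of Cd47 in adult wild type and 2.73 to 2.86 times in Spic_WT.

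Markers of other cells also differed between these adult and pup libraries. B cell markers summed to 1968 to 2615 in adults against 568 to 798 in pups, with 4 of 6 up, and of the 9 macrophage markers 3 fell. The natural killer markers, whose cells are known for Fcgr3, summed to 9.80 to 20.6 in adult wild type and to at most 1.62 in Spic_WT. The neutrophil markers summed to 20.4 to 988 in adult wild type and 28.6 to 59.6 in Spic_WT. The 5 monocyte markers summed to 351 to 403 in adult wild type and 23.8 to 102 in Spic_WT. Of them 1 rose and 0 fell, with a median log2 change of 2.44. The part of these cells in the receptor levels was not tested.

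Genes that act downstream of the receptors, and related receptors, were read from lists for the pathway. Beside their counts stand the shares of all tested genes given above: 2.98% rose and 2.54% fell in splenic vavCre, and 3.41% rose and 4.4% fell in marrow. Of 20 ITAM adaptors and kinases, 2 rose and 2 fell in splenic vavCre (median log2 change -0.23) and 1 rose and 2 fell in marrow (0.08). Fgr, a Src-family kinase, fell from a mean of 1603 to 215 in spleen (log2 change -2.91, limma adjusted p = 1.5e-06) and from 1323 to 321 in marrow (-2.13, limma adjusted p = 5.5e-05). Fyn, another kinase of that family, fell in both (log2 changes of -1.62 in spleen and -3.65 in marrow, limma adjusted p = 0.000985 and 7.2e-08). Prkcd, a protein kinase C, rose in both (0.58 and 0.66).

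Of 14 genes tested from the list of ITIM phosphatases and inhibitory adaptors, which also holds receptors, none passed in splenic vavCre (median log2 change 0.16). In marrow 3 rose (0.11). The 3 were Siglece, a sialic acid receptor (log2 change 1.39), Dok2, an adaptor (1.10), and Ptpn6, which encodes SHP-1 (0.71, limma adjusted p = 0.00352). In wild type, 6 of the 14 were higher in spleen than in marrow, led by Siglece (2.26), Lair1 (1.09) and Cd300a (0.83), and 0 were lower, where 2.07% of all tested genes were higher and 1.82% lower.

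Of 22 genes of the phagocytic cup and actin, 2 rose and 1 fell in each vavCre comparison (median 0.16 in both). Myo10, an unconventional myosin of phagocytic cups, fell in both (-1.47 and -1.56). Rac2, a small GTPase of the phagocyte cytoskeleton, rose in spleen (0.69, limma adjusted p = 0.00428), and Nckap1l, a subunit of the WAVE complex, rose in marrow (0.49).

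Of 12 other Fc and immunoglobulin receptor genes tested, 1 rose and 1 fell in spleen and 2 rose and 2 fell in marrow. Their median log2 change was -0.96 in spleen, against -0.02 for all tested genes, and 0.03 in marrow, against -0.04. Fcrl1, an Fc receptor-like gene known from B cells, fell in both (-1.95 and -2.49), while Fcrls rose in marrow from a mean of 4.18 to 278 (log2 change 6.85, limma adjusted p = 0.000555). Of 14 SIRP family members and CD47 partners, 2 fell in spleen (median log2 change -0.07), and 1 rose and 4 fell in marrow (-0.25). Sirpb1a, an activating relative of Sirpa, fell in spleen from a mean of 182 to 9.89 (limma adjusted p = 0.0110), and in marrow from 15.2 to 0 in all 3 vavCre libraries. Lrp1, a receptor for calreticulin on dying cells, fell in splenic vavCre (-0.61) and in Spic_KO (-1.20, limma adjusted p = 0.0212).

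**Figure D5:**
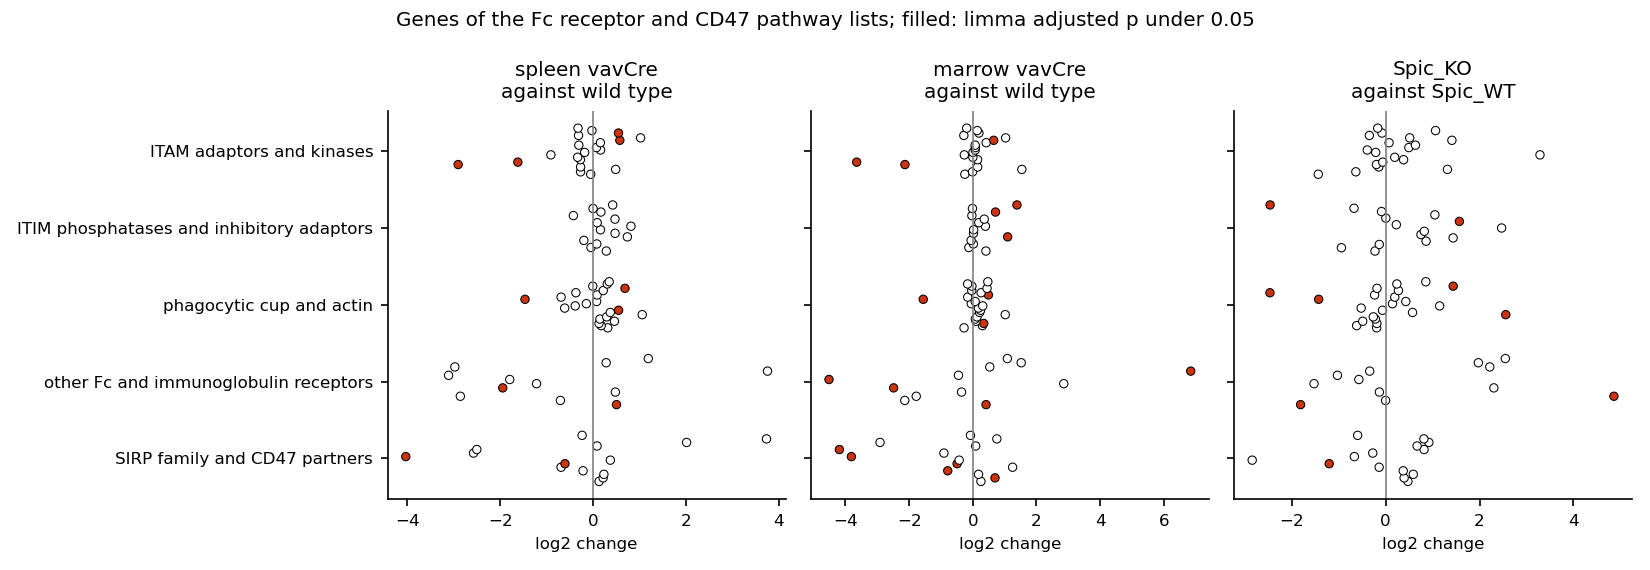
The log2 change of each tested gene of the 5 pathway lists (rows) in splenic vavCre, marrow vavCre and Spic_KO; filled points have a limma adjusted p under 0.05. The median in splenic vavCre was -0.96 for other Fc and immunoglobulin receptors and -0.23 to 0.16 for the remaining lists. The called genes lie on both sides of 0 in most lists.

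In Spic_KO, where 1.47% of all tested genes rose and 2.48% fell, no ITAM gene passed, and the ITIM list had 1 up (Lilrb4a, an inhibitory leukocyte receptor, log2 change 1.57) and 1 down (Siglece, -2.46). The phagocytic cup list had 2 up and 2 down, among them Coro1a, an actin-binding protein of leukocytes (2.56), Vasp, an actin elongation factor (1.44), and Pak1, a kinase (-2.46). In adult wild type against Spic_WT, where 1.56% of all tested genes were higher and 1.86% lower, Tyrobp, the adaptor DAP12, fell by 1.90 on the log2 scale (limma adjusted p = 0.000138). No gene of the 5 lists passed in adult TAM_CreERT2, nor in the test of the tissue difference.

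The genes whose log2 values followed each member most closely were listed by Pearson's r, as a description over libraries that share groups and depth. Over the 12 libraries of the first table, Fcgr2b was followed by Nfatc2 (0.98), Slc12a9 (0.97) and Sulf2 (0.97), and Fcgr3 by Lgmn, Plin2 and Cd300a (0.98, 0.98 and 0.97). Fcgr4 was followed by Tgm2 (0.96), Fcer1g by Tmsb4x (0.97) and Fcgr1 by Slamf9 (0.93). Over the 11 libraries of the other table, Fcgr3 was followed by Tyrobp (0.98), Fcgr1 by Arpc1b (0.96) and Fcgr3 (0.95), Fcgr4 by Calr (0.97) and Fcgr2b by Hsp90b1 (0.95). With Spearman's rho in place of r, at most 1 of the 3 nearest genes of each member was the same.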

How the data were processed

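Each library came from 1000 sorted cells: RNA was captured with oligo-dT, PCR-amplified and cut with Nextera XT, per the labels' protocols. The submitters' processing notes name STAR, edgeR and GRCm38 but give neither their versions nor their roles. The authors deposited 2 tables of a signal per gene that no header names; with 1 factor per library, 97.7 to 100% (first table) and 96.4 to 100% (other table) of values up to 500 reads fell within 0.1 of a whole read, so the values are read here as normalised counts. The 12 libraries of one table each total 9.14 to 10.5 M, and the 11 of the other total 1.43 to 1.73 M.

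All groups of a table were fitted together with limma 3.58.1 (trend, robust) in R 4.3.3 on log2(value + 1), so that fold changes of low genes are understated. The genes tested (15130 and 16650) reached 1 or more in 2 or more libraries, with Benjamini-Hochberg adjustment over all of them and a threshold of 0.05; all 7 members were tested in both tables. Alternatives were other filters, pseudocounts and scalings, the compared groups alone, a replicate block, a log2 change of at least 1, leaving out each library, and edgeR 4.0.16 and DESeq2 1.42.0 on recovered reads. The fit was checked on simulated data: for splenic vavCre against wild type (14810 genes) it recovered 29 of 100 genes changed by 1 log2 unit and 67 of 100 changed by 2, and for Spic_KO against Spic_WT (15961 genes) 1 and 19 of 100. The members, pathway and marker lists were chosen with earlier results of these data known. Named pathway genes are up to 3 called genes of largest change per list and comparison; a symbol on 2 rows was read from the row of higher mean. Same-numbered replicates correlated at -0.05 to 0.09 in their deviations from group means, which gave no sign of pairing. With so few libraries per group this cannot exclude that they share an animal or a litter, and the main fit used no pairing.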

Additional observations from a re-analysis of the deposited data

How the results depend on the processing

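The rises of Fcgr2b in both vavCre comparisons kept direction and call in all alternatives (log2 change 3.39 to 4.09 in spleen and 1.50 to 2.26 in marrow). The adult libraries held 0.693 to 4.24 M reads and those labelled Spic_KO 2.85 and 3.07 M. With 2 libraries in Spic_KO and in RPM_TAM_WT 1 library decides several calls, and the report names them. Of 1136 results and settings for single genes, ratios and similar genes, 1030 stayed the same, 34 lost and 13 gained a call, 15 moved and 44 changed sign. Those that stayed the same include genes called in neither fit, and ratios and similar genes, which have no call. The total is thus no measure of how stable the calls are: Fcgr4 kept its call in 9 of 17 alternatives in marrow vavCre and in 8 of 17 between wild type tissues. The cause was not tested for any of these.

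When a log2 change of at least 1 was required, 1 member was called in splenic vavCre, where 546 of 15130 genes tested were. The same setting left 2 members in marrow vavCre and 1 in vavCre spleen against marrow, where the counts over all genes are not given here. DESeq2 called 3 members in Spic_KO, where it called 1694 of 16650 genes. Leaving out 1 library gave 1 to 3 members in vavCre spleen against marrow, 0 to 1 in Spic_KO and 1 to 4 in adult against day-7 wild type.

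For all genes, DESeq2 called 1290 in splenic vavCre, 93 for the tissue difference, 952 between wild type tissues, 950 between vavCre tissues, 1694 in Spic_KO, 130 in adult TAM_CreERT2 and 1259 in adult against day-7, where limma called 835, 18, 588, 529, 658, 24 and 569. edgeR called 31 for the tissue difference. Fitting the compared groups alone gave 1367 in splenic vavCre, 742 (from 1182) in marrow, 37 in TAM_CreERT2 and 1637 in adult against day-7. A log2 change of at least 1 left 546 in splenic vavCre and 329 between wild type tissues. No filter gave 11 for the tissue difference and 5 in TAM_CreERT2, where pseudocounts of 0.1 and 5 gave 14 and 9 and TMM scaling 5. The replicate block gave 332 in Spic_KO and 248 in adult against day-7, and it ended the call of Fcgr4 between wild type tissues (limma adjusted p = 0.0537). Whether the replicate numbers pair the libraries is not known. Leaving out 1 library gave 536 to 649 in splenic vavCre, 11 to 24 for the tissue difference, 269 to 665 and 271 to 479 between tissues, 261 to 1972 in Spic_KO, 2 to 18 in TAM_CreERT2 and 44 to 727 in adult against day-7.

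Signs changed for the following log2 changes. With equal library totals they were -0.039 for Sirpa and -0.050 for Fcgr1 between wild type tissues, -0.069 for Cd47 between vavCre tissues, and -0.015, -0.052 and -0.051 for Fcgr4, Cd47 and Fcgr1 in TAM_CreERT2. DESeq2 gave -0.0029 for Fcgr1 between wild type tissues and 0.13 in Spic_KO, and edgeR gave 0.020 for Fcgr1 in Spic_KO, -0.0068 for Cd47 and -0.0096 for Fcgr1 in TAM_CreERT2. Leaving out 1 library gave, in splenic vavCre, -0.078 to 0.082 for Cd47, and in marrow -0.0067 to 0.15 for Sirpa. For the tissue difference it gave -0.15 to 0.0097 for Cd47, -0.018 to 0.070 for Fcer1g, -0.13 to 0.12 for Fcgr3 and -0.15 to 0.81 for Fcgr4. Between tissues it gave -0.085 to 0.15 for Fcgr1 in wild type and -0.024 to 0.14 for Cd47 in vavCre. In Spic_KO it gave -0.98 to 0.68 for Fcgr1 and -0.30 to 0.11 for Fcgr3. In TAM_CreERT2 it gave -0.19 to 0.24 for Fcgr1, -0.93 to 0.45 for Fcgr3, -0.053 to 0.17 for Fcgr4, -0.014 to 0.17 for Sirpa and -0.027 to 0.075 for Cd47. Mean log2 ratios to Fcgr2b ranged from -0.21 to 0.64 (Fcgr1, BMM_d7_vavCre), -0.39 to 0.40 (Fcgr4, RPM_d7_vavCre) and -0.089 to 0.68 (Fcgr4, BMM_d7_WT).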

Other observations

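Gene totals of Spic, which do not show a deleted exon, were 931.1 and 1236 in libraries labelled Spic_KO against 1993 to 3110 in Spic_WT. Pparg, the gene in the title of the series, was itself lower in those libraries labelled Spic_KO. It stood at 210.6 to 330.4 in RPM_d7_Spic_WT and at 21.73 and 26.03 in the 2 RPM_d7_Spic_KO libraries, a log2 change of -3.33 (SE 0.39, limma adjusted p = 2.9e-05). The groups did not overlap, and this gene was chosen after its values were seen.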
